A study of Mus musculus with 6 samples.

Results

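Lysosomes are acidic compartments in which cells break down proteins, sugar chains and lipids that arrive by endocytosis or autophagy. Their soluble enzymes are carried there by sorting receptors, their limiting membrane is lined by heavily glycosylated proteins such as Lamp1 and Lamp2, and transcription of many of their genes is driven by the related factors Tfeb and Tfe3, which bind the sequence CACGTG and its longer forms. In stromal cells these enzymes also turn over internalised matrix. The genes described here are 37 genes for lysosomal enzymes, membrane proteins and these 2 transcription factors, taken by name from a table of 22186 genes. All 37 were in the table, and all 37 averaged at least 1 TPM across the libraries and were tested, as did 12405 genes in all.

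Messenger RNA was sequenced from primary adipose-derived stromal cells (ADSCs), fibroblast-like cells isolated from fat, of wild-type mice. In the first group of libraries (Treg co-culture, n = 3) the ADSCs had shared their culture for 48 h with regulatory T cells (Treg), which dampen immune reactions. The second group (control, n = 3) came from ADSCs without Treg. No group was cultured with other cells, so an effect of Treg cannot be told apart from an effect of any co-culture, and the sources used here do not give the age or sex of the mice, the cell ratio, or whether the cells touched. Separate animals or cultures are not stated for the replicates, so p-values here reflect spread among libraries that may be purely technical.

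Values are TPM, which correct for gene length and add up to 1000000 in each library, so sequencing depth is unknown and levels of different genes can be compared. Stromal transcripts were abundant, as the label says: the collagen gene Col1a1 stood between 5762 and 6919 TPM, and Pdgfra, Thy1 and Dcn were each above 100 TPM in all 6 libraries. The T cell genes Cd3d, Cd3e, Cd3g, Cd2, Cd4, Il2ra and Ctla4 were listed at 0 in every library. The other 7 genes of the 14-gene T cell list were low. Ikzf2 averaged 2.36 ± 0.305 TPM after co-culture and 2.25 ± 0.137 TPM in controls and did not pass (adjusted p = 0.823, limma). The rest lay below the filter on low values, among them Lck (1.02 TPM after co-culture and 0.927 TPM in controls), Foxp3 (0.0383 TPM after co-culture and 0.0367 TPM in controls) and Ptprc, a gene of all white blood cells. Ptprc was at 0.443, 0.528 and 0.633 TPM after co-culture, against 0.326, 0.304 and 0.414 TPM in controls, with groups that did not overlap. Summed, the 14 genes made up 4.25 to 4.69 TPM after co-culture, against 3.70 to 4.41 TPM in controls, and their part in the lysosomal result was not tested. Treg co-culture 1 stood apart from the other libraries in transcripts of liver and heart. The summed level of 9 such transcripts was 106 TPM there, against at most 1.27 TPM in any other library. The counts of lysosomal genes that fell and rose, and the largest shift of their log2 fold changes, are therefore also given without it. Means, sums, ratios and the other gene lists include it.

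Most lysosomal genes were lower after Treg co-culture, by modest amounts. Of the 37 genes, 28 fell and 1 rose past a Benjamini-Hochberg adjusted p of 0.05 in limma, and 8 did not pass. Among all 12405 genes tested, 37.8% passed in either direction, 18.0% lower and 19.8% higher. The median log2 fold change of the 37 genes was -0.25, against 0.00 over all genes tested. All 11 proteases and all 6 lipid enzymes and lipid-binding proteins fell, as did 9 of the 11 enzymes that act on sugar chains. The 1 gene that rose was Scarb2, an abundant membrane protein of lysosomes that also acts as a sorting receptor. Without Treg co-culture 1, 27 of the 37 genes fell and the same gene rose.

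Summed over the 37 genes, lysosomal transcripts made up 10641, 10631 and 10682 TPM in Treg co-culture 1 to 3, against 12094, 12158 and 12152 TPM in controls 1 to 3. These are 1.06% to 1.07% of all transcripts after co-culture and 1.21% to 1.22% in controls, and the groups did not overlap. The sum after co-culture was 87.8% of the control sum. Ctsd, Cd63, Lamp1, Ctsl, Psap, Ctsb and Lamp2, the 7 most abundant genes, held 69.5% of the sum in controls. Levels of single genes ranged from 3.61 TPM for Cln3 to 1318 TPM for Cd63 after co-culture, and from 3.91 TPM for Cln3 to 1389 TPM for Ctsd in controls. Replicates lay close together, with a median coefficient of variation of 2.25% after co-culture and 3.09% in controls. In 30 of the 37 genes all co-culture values lay below all control values and in 2 they lay above. Over all genes tested, 49.3% had groups that did not overlap, 24.0% lower and 25.3% higher.

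**Figure D1:**
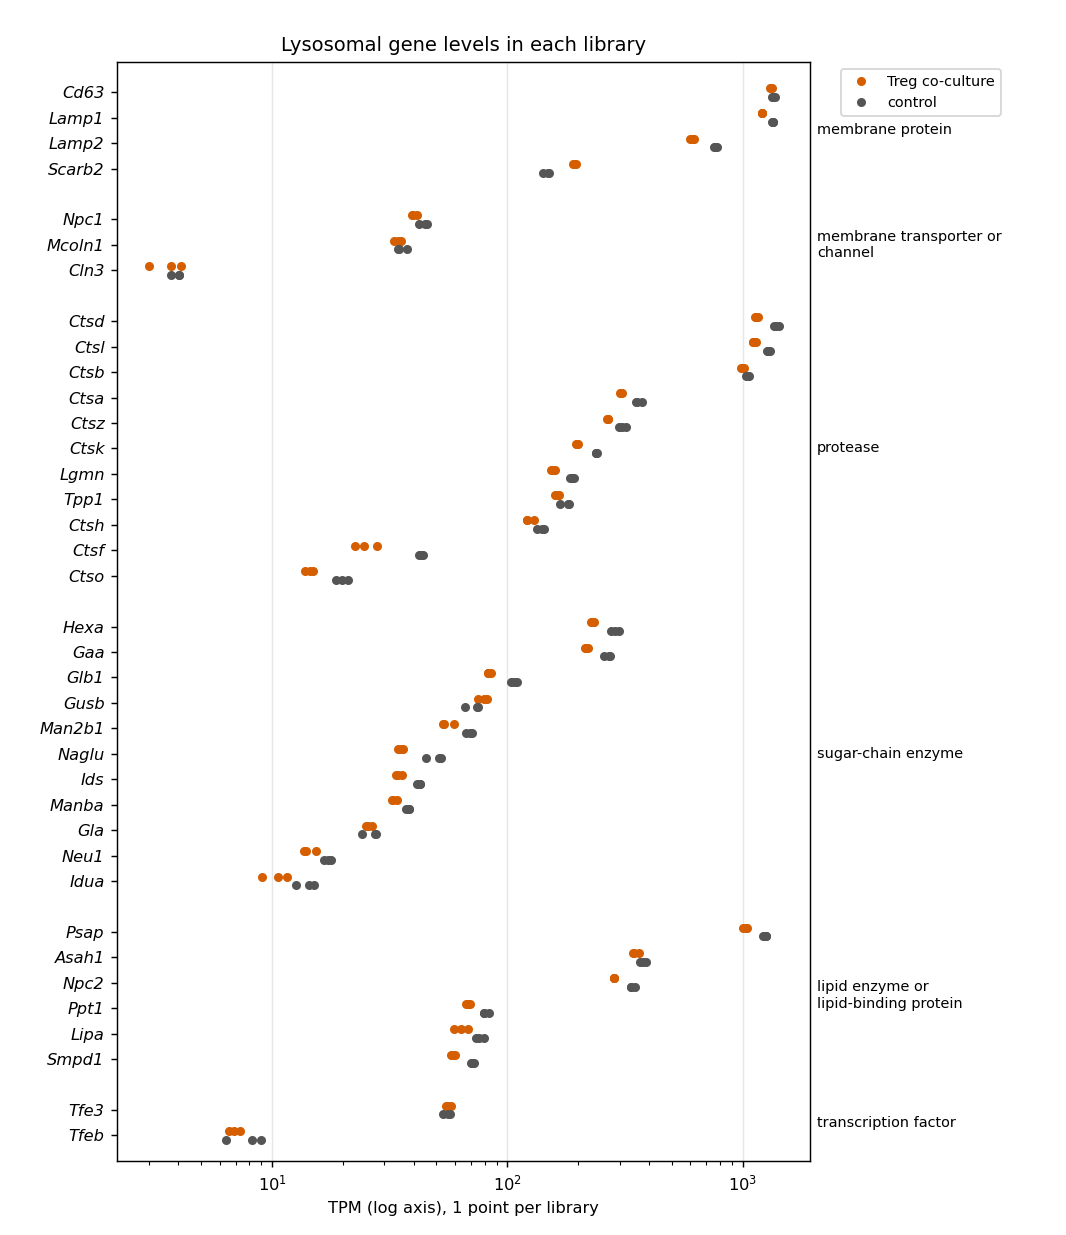
TPM of the 37 lysosomal genes in each library on a log axis, grouped by role and sorted by control level. Within each row the upper points are the 3 Treg co-culture libraries and the lower points the 3 control libraries; co-culture points lie to the left for most enzymes, and to the right for Scarb2.

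The promoter sequences of these genes are shown because the Tfeb family binds CACGTG. Whether this family had a part in the changes was not tested. RefSeq windows (build GRCm38.p6) that run from 250 bases before to 50 bases after an annotated start were found for 33 of the 37 genes, in 40 windows. CACGTG, which reads the same on both strands, was found in 12 of the 40 windows (30.0%), against 7.15% of all 32851 windows in the table and 9.89% of the 12677 windows of genes tested. The longer TCACGTGA, which contains CACGTG, was in 5 windows (12.5%), in Cln3, Ctsa, Ctsd, Gla and Mcoln1. It was in 0.974% of all windows and 1.85% of windows of genes tested. In 30 windows of the separate list of other lysosomal enzymes and activators, CACGTG was in 4 (13.3%) and TCACGTGA in 2 (6.67%). The same 8 bases as in TCACGTGA, with a G before them and a C after them, were in 1 of the 40 windows, that of Cln3. They were in 0.326% of all windows and 0.671% of windows of genes tested. A match shows only that these letters are present.

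Printed here are the 250 bases before the start, 5′ to 3′ on the strand of the gene. The first 4 are the 2 genes with the deepest and the 2 with the smallest fall among genes that changed, hold the motif and have a start within 100 bases of one in GENCODE. Cln3 and Scarb2 were added after their values were seen, Cln3 for its long motif and Scarb2 as the gene that rose. Capitals mark CACGTG or the longer form that holds it. The windows are chr19:4854915-4855164 (+) for Ctsf, chr11:101069844-101070093 (+) for Naglu, chr2:164833523-164833772 (+) for Ctsa, chr8:13158911-13159160 (+) for Lamp1, chr7:126583237-126583486 (-) for Cln3 and chr5:92505658-92505907 (-) for Scarb2.
Ctsf: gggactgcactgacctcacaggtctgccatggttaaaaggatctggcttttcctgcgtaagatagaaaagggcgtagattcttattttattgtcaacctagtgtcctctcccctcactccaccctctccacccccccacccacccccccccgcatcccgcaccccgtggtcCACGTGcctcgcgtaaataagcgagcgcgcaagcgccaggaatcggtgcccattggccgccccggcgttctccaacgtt
Naglu: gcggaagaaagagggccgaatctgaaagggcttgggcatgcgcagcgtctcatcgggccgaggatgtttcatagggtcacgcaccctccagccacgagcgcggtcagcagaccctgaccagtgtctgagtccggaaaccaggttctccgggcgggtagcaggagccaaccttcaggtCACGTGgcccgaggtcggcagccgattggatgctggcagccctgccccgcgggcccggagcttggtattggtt
Ctsa: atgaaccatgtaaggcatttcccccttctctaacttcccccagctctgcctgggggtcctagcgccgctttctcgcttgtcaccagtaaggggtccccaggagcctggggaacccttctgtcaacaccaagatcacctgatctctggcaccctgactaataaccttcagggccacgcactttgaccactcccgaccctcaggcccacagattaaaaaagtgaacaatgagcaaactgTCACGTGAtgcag
Lamp1: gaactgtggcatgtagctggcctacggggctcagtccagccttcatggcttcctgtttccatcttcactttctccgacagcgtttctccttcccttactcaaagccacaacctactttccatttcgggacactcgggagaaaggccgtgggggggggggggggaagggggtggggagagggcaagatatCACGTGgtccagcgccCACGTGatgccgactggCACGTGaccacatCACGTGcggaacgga
Cln3: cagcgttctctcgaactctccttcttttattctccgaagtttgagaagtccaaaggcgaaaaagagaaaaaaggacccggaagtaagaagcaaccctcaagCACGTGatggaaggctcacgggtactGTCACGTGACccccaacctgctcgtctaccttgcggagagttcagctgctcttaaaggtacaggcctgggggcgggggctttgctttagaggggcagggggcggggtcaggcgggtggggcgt
Scarb2: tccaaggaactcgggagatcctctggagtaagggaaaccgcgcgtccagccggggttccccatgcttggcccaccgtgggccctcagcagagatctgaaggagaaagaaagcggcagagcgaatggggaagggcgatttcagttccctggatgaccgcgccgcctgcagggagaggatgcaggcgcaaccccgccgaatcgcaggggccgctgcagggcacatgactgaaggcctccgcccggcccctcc

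Lamp1 held CACGTG at 4 places in this stretch, Cln3 at 2 and Scarb2 at none. The 12 genes with CACGTG had a median log2 fold change of -0.26, with 9 lower and 3 that did not pass. The 21 genes whose windows lacked it had the same median of -0.26, with 16 lower, 1 higher and 4 that did not pass. Over all genes tested 18.0% fell and 19.8% rose. For Ctsl, Lgmn and Gla the start of the window with the motif lay 214, 721 and 120 bases from the nearest GENCODE start, so these windows may not cover the start in use.

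The proteases were lower throughout, and cathepsin F fell most of all 37 genes. Ctsf, a cysteine protease, was at 27.8, 24.7 and 22.5 TPM in Treg co-culture 1 to 3, against 42.8, 43.8 and 42.3 TPM in controls 1 to 3. Its groups were far apart, with a mean 41.8% lower after co-culture and a log2 fold change of -0.76 (SE 0.07, adjusted p = 2.03e-05). Ctso, another cysteine cathepsin, was at 13.7, 14.5 and 15.0 TPM after co-culture, against 19.9, 18.8 and 21.0 TPM in controls. It was 27.5% lower, with a log2 fold change of -0.44 (SE 0.07, adjusted p = 0.000704).

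The 3 most abundant cathepsins fell by unequal amounts. Ctsd, the main aspartic protease of lysosomes, was at 1163, 1131 and 1144 TPM after co-culture, against 1364, 1423 and 1380 TPM in controls, and was 17.5% lower (log2 fold change -0.28, SE 0.02, adjusted p = 4.61e-06). Ctsl, an endopeptidase, was at 1108, 1107 and 1140 TPM after co-culture, against 1305, 1277 and 1270 TPM in controls (12.9% lower, adjusted p = 3.08e-05). Ctsb, which cuts within proteins and from their ends, was at 984, 1009 and 996 TPM after co-culture, against 1054, 1060 and 1037 TPM in controls. The groups of Ctsb did not overlap, but its mean was only 5.11% lower (log2 fold change -0.08, SE 0.02, adjusted p = 0.00995), and its call was lost without the mean-variance trend of limma (adjusted p = 0.163).

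Ctsk, a collagen-degrading cathepsin best known from osteoclasts, was at 199, 197 and 195 TPM after co-culture, against 238, 239 and 242 TPM in controls. The log2 fold change was -0.28 (SE 0.03, adjusted p = 1.53e-05), with an SD between replicates of 1.92 TPM after co-culture and 2.06 TPM in controls. Lgmn, an endopeptidase that cuts after asparagine and matures several cathepsins, was at 153, 159 and 156 TPM after co-culture, against 185, 188 and 192 TPM in controls (log2 fold change -0.27, adjusted p = 5.8e-05). Ctsa, a carboxypeptidase that also shields the enzymes encoded by Glb1 and Neu1 in a complex, was at 300, 307 and 306 TPM after co-culture, against 354, 375 and 355 TPM in controls (log2 fold change -0.25, adjusted p = 8.69e-05). The genes of its partners fell too, as given with the sugar-chain enzymes.

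The other 3 proteases fell by smaller shares than Ctsa. Ctsz, a carboxypeptidase, was 13.4% lower (267 ± 1.43 TPM after co-culture and 308 ± 9.60 TPM in controls, mean ± SD, n = 3 each, adjusted p = 0.000258). Ctsh, an aminopeptidase, was 10.8% lower (124 ± 5.46 TPM after co-culture and 139 ± 5.14 TPM in controls, adjusted p = 0.0101), and its call was lost without the trend (adjusted p = 0.0528). Tpp1, which removes tripeptides from protein ends, was at 160, 166 and 164 TPM after co-culture, against 167, 181 and 182 TPM in controls. Its adjusted p of 0.0358 rose above the threshold when any library but control 1 was left out: leaving out co-culture library 1 gave 0.109, co-culture library 2 gave 0.0528, co-culture library 3 gave 0.0750, control 2 gave 0.114 and control 3 gave 0.123. The call of Tpp1 was also lost with no filter (0.0612) and without the trend (0.123).

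**Figure D2:**
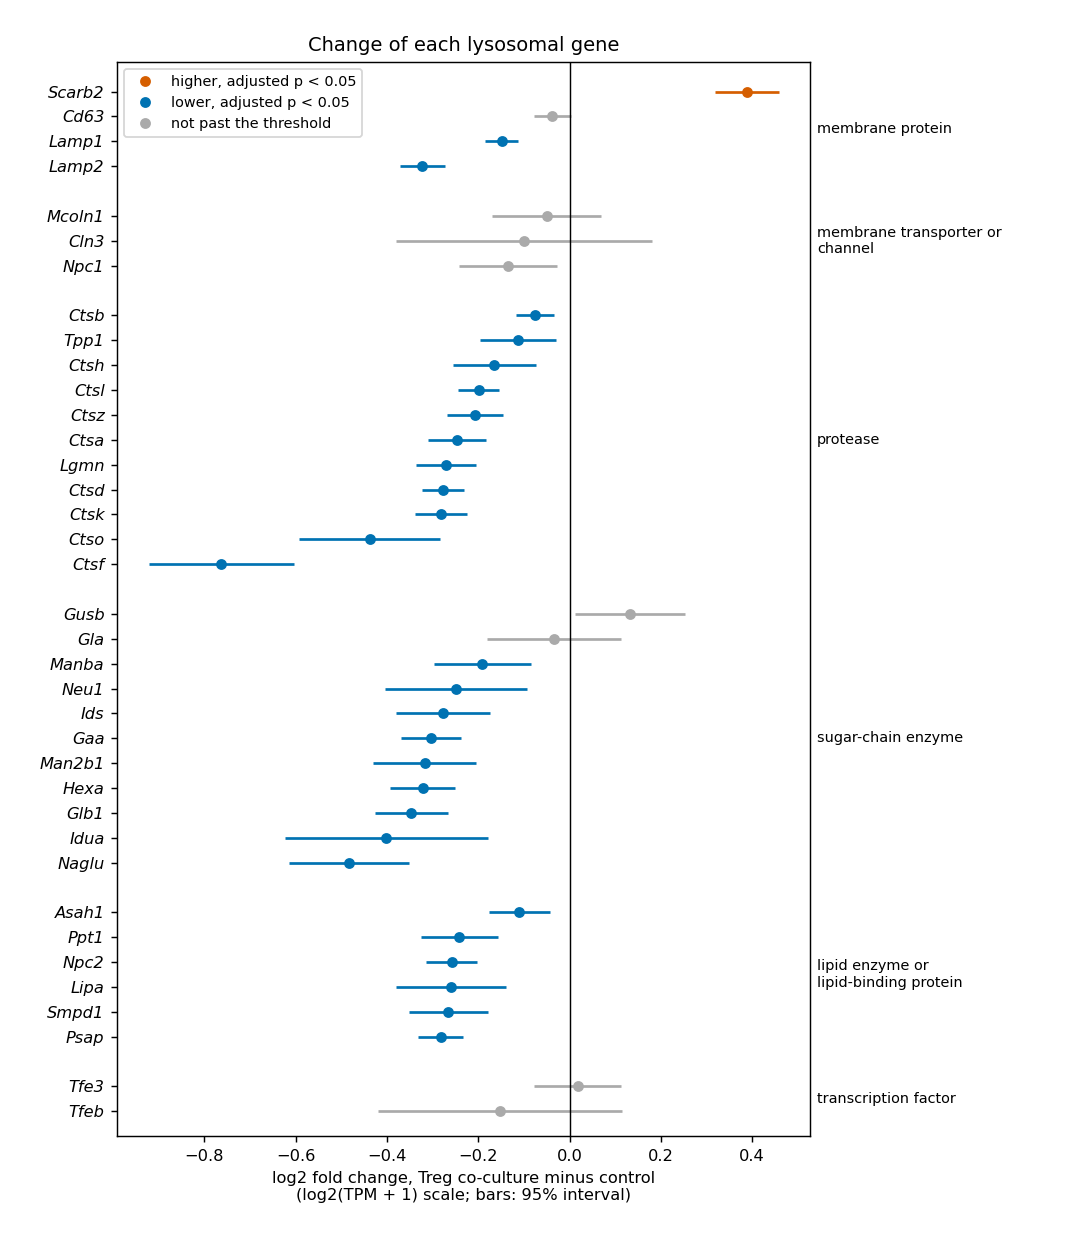
Log2 fold change of each lysosomal gene (Treg co-culture minus control, log2(TPM + 1) scale) with its 95% interval from limma, grouped by role. Blue marks the 28 genes that fell and orange the 1 that rose past the threshold; the 8 grey genes did not pass it.

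Enzymes that cut sugar chains formed the group with the lowest median log2 fold change among the roles (-0.30, n = 11 genes, 9 of them lower). Naglu, which acts on heparan sulfate, was at 35.9, 34.2 and 35.2 TPM in Treg co-culture 1 to 3, against 45.3, 51.3 and 52.1 TPM in controls 1 to 3. It was 29.2% lower (log2 fold change -0.48, SE 0.06, adjusted p = 0.000126), and control 1 lay below the other controls yet above every co-culture library. Idua, which removes iduronic acid from heparan and dermatan sulfate, was at 10.6, 11.6 and 9.10 TPM after co-culture, against 14.3, 12.7 and 15.1 TPM in controls (log2 fold change -0.40, SE 0.10, adjusted p = 0.00974). Ids, the iduronate sulfatase that acts on the same chains, was at 35.6, 33.5 and 34.4 TPM after co-culture, against 41.4, 42.4 and 42.4 TPM in controls (log2 fold change -0.28, adjusted p = 0.001).

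Several enzymes of glycolipid and glycoprotein breakdown also fell. Glb1, the acid β-galactosidase, was at 82.6, 85.3 and 82.8 TPM after co-culture, against 106, 104 and 110 TPM in controls, 21.5% lower (log2 fold change -0.35, SE 0.04, adjusted p = 4.2e-05). Hexa, the α subunit of β-hexosaminidase, was at 233, 229 and 227 TPM after co-culture, against 276, 299 and 288 TPM in controls, 20.1% lower (adjusted p = 3.14e-05).

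Gaa, the acid α-glucosidase that degrades lysosomal glycogen, was at 219, 215 and 215 TPM after co-culture, against 258, 271 and 274 TPM in controls (19.1% lower, adjusted p = 2.75e-05). Man2b1, an α-mannosidase, was at 53.6, 53.1 and 59.3 TPM after co-culture, against 66.8, 71.0 and 69.7 TPM in controls (20.0% lower, adjusted p = 0.000756). Manba, a β-mannosidase, was 12.7% lower (adjusted p = 0.00983). Neu1, the lysosomal sialidase, was at 15.4, 13.7 and 14.0 TPM after co-culture, against 17.7, 16.6 and 17.4 TPM in controls. Its adjusted p of 0.018 exceeded the threshold when Treg co-culture 2 (0.0623), Treg co-culture 3 (0.0574) or control 1 (0.0547) was left out.

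Gla and Gusb did not pass the threshold. Gla, α-galactosidase A, was at 26.5, 25.1 and 25.5 TPM after co-culture, against 27.7, 27.5 and 24.0 TPM in controls, with overlapping groups. The 95% interval of its log2 fold change ran from -0.18 to 0.11. Gusb, β-glucuronidase, was at 75.3, 81.8 and 79.3 TPM after co-culture, against 66.3, 75.2 and 74.1 TPM in controls. All its co-culture values lay above the control values, and the log2 fold change was 0.13 (SE 0.05, adjusted p = 0.0779). With batch as a replicate block the adjusted p of Gusb was 0.0323, so that 2 of the 37 genes rose in that fit.

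All 6 genes of the lipid enzyme and lipid-binding role fell. Psap, the precursor of the saposins that present glycolipids to their enzymes, was at 1000, 1044 and 1030 TPM in Treg co-culture 1 to 3, against 1223, 1253 and 1263 TPM in controls 1 to 3. It was 17.8% lower (log2 fold change -0.28, SE 0.02, adjusted p = 5.25e-06). Npc2, the soluble protein that hands cholesterol to Npc1, stood at 284 TPM in each co-culture library, against 348, 335 and 336 TPM in controls (16.5% lower, adjusted p = 2.47e-05). Npc1, the membrane protein that exports this cholesterol, was at 41.1, 39.5 and 39.7 TPM after co-culture, against 42.0, 44.8 and 45.5 TPM in controls.

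For Npc1 the groups did not overlap and the log2 fold change was -0.13, but the adjusted p of 0.0511 lay just above the threshold. It lay below it with a filter of 5 TPM (0.0473), with median-of-ratios scaling (0.0461), with quantile normalization (0.0285) and without control 1 (0.0265). Whether the fall of Npc2 differed from that of Npc1 was not tested.

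Smpd1, the acid sphingomyelinase, was at 58.8, 60.2 and 57.6 TPM after co-culture, against 70.5, 69.9 and 72.5 TPM in controls (17.1% lower, adjusted p = 0.000422). Lipa, the acid lipase that frees cholesterol and fatty acids, was at 59.4, 63.3 and 68.2 TPM after co-culture, against 79.8, 73.5 and 75.7 TPM in controls (16.6% lower, adjusted p = 0.00382). Ppt1, which strips palmitate from proteins, was 15.6% lower (68.2 ± 1.23 TPM after co-culture and 80.8 ± 2.13 TPM in controls, adjusted p = 0.000662). Asah1, the acid ceramidase, fell least of the group. It was at 361, 343 and 347 TPM after co-culture, against 390, 368 and 377 TPM in controls (7.38% lower, adjusted p = 0.0152), and its call was lost without Treg co-culture 2 (adjusted p = 0.0601) or Treg co-culture 3 (0.0517) and without the trend (0.104).

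Of the 7 membrane proteins, transporters and channels, 1 rose (14.3%), 2 fell (28.6%) and 4 did not pass. Over all genes tested 19.8% rose and 18.0% fell, so with so few genes these shares were near the background. Whether they differ from the enzymes as a group was not tested. Lamp2, which also serves as receptor in chaperone-mediated autophagy, was at 617, 600 and 620 TPM in Treg co-culture 1 to 3, against 760, 756 and 781 TPM in controls 1 to 3. It was 20.0% lower (log2 fold change -0.32, SE 0.02, adjusted p = 2.58e-06). Lamp1 was at 1214, 1208 and 1204 TPM after co-culture, against 1343, 1332 and 1344 TPM in controls, 9.76% lower (log2 fold change -0.15, SE 0.02, adjusted p = 6.04e-05). The ratio of Lamp2 to Lamp1 within a library was 0.508, 0.497 and 0.515 after co-culture, against 0.566, 0.568 and 0.581 in controls, so Lamp2 was lower relative to Lamp1 in every co-culture library. The exact two-sided permutation p of this ratio was 0.1, the smallest that 3 against 3 libraries allow.

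Cd63, a tetraspanin of late endosomes, lysosomes and secreted vesicles, was at 1320, 1305 and 1329 TPM after co-culture, against 1374, 1339 and 1346 TPM in controls. Its groups did not overlap, but the difference was 2.59% of the control mean and did not pass (log2 fold change -0.04, 95% interval -0.08 to 0.00, adjusted p = 0.127). It passed only under quantile normalization (log2 fold change -0.08, adjusted p = 0.00356). The interval of Cd63 does not reach the log2 fold change of Lamp2.

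Scarb2 was the 1 gene of the 37 that rose. It was at 193, 191 and 196 TPM after co-culture, against 151, 149 and 142 TPM in controls, with groups far apart. Its mean was 31.1% higher (log2 fold change 0.39, SE 0.03, adjusted p = 7.07e-06), and the call held under every alternative tried. The ratio of Scarb2 to Lamp2 was 0.312, 0.318 and 0.316 after co-culture, against 0.198, 0.197 and 0.182 in controls. In every co-culture library Scarb2 lay above and Lamp2 below all controls. This ratio therefore had to separate the groups and adds nothing to the values of the single genes.

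Mcoln1, a cation channel that releases calcium from lysosomes, was at 33.1, 34.2 and 35.3 TPM after co-culture, against 34.3, 37.5 and 34.7 TPM in controls (95% interval of the log2 fold change -0.17 to 0.07). Cln3, a membrane protein whose loss causes juvenile Batten disease, was the least abundant of the 37 genes, at 2.99, 4.11 and 3.72 TPM after co-culture, against 4.01, 4.01 and 3.72 TPM in controls. Its interval ran from -0.38 to 0.18, wide enough to hold the median change of the whole group. Both genes had overlapping groups.

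**Figure D3:**
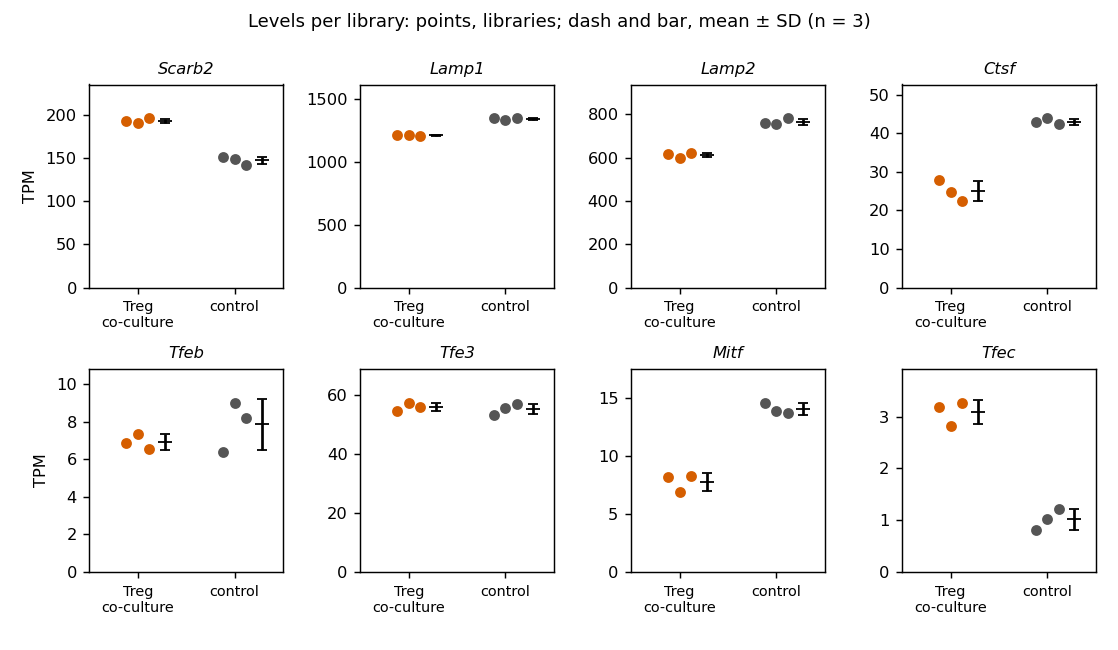
TPM of 8 genes in Treg co-culture libraries (left in each panel) and control libraries (right), with 1 point per library and a dash and bar for mean ± SD (n = 3 each). Scarb2 and Tfec were higher after co-culture, Lamp1, Lamp2, Ctsf and Mitf were lower, and Tfeb and Tfe3 overlapped between the groups.

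Transcripts of the transcription factors Tfeb and Tfe3 did not pass the threshold. Tfeb was at 6.88, 7.34 and 6.54 TPM in Treg co-culture 1 to 3, against 6.36, 9.01 and 8.21 TPM in controls 1 to 3, with overlapping groups and a 95% interval of the log2 fold change from -0.42 to 0.12. Tfe3, the more abundant (56.1 ± 1.35 TPM after co-culture and 55.4 ± 1.84 TPM in controls), had an interval from -0.08 to 0.11. Both proteins are known to be controlled by phosphorylation and movement into the nucleus, which transcript levels do not measure.

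The other family members, Mitf and Tfec, changed in opposite directions. Mitf was at 8.21, 6.87 and 8.23 TPM after co-culture, against 14.6, 13.9 and 13.6 TPM in controls (log2 fold change -0.78, SE 0.09, adjusted p = 7.43e-05). Tfec was at 3.18, 2.83 and 3.27 TPM after co-culture, against 0.811, 1.03 and 1.21 TPM in controls (log2 fold change 1.02, SE 0.15, adjusted p = 0.000355). A list of 22 genes held Mitf, Tfec and genes around the mTORC1 kinase complex, which holds these factors in the cytosol. Tfeb and Tfe3 were not in this list. Of the 22 genes 4 fell (18.2%) and 1 rose (4.55%), against 18.0% and 19.8% of all genes tested. The share that fell was thus near the background. Besides Mitf the lower genes were Rragc (log2 fold change -0.20) and Flcn (-0.25), which act in nutrient sensing at the lysosome, and Fnip1 (-0.19), the partner of Flcn, named after its value was seen. The scaffold gene Lamtor1 (-0.02) and Akt1s1 (-0.05) did not pass.

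Other lysosomal enzymes and activators, from a separate list, were lower in 21 of 35 tested genes (60.0%) and higher in 1 (2.86%). Over all genes tested these shares were 18.0% and 19.8%. The median log2 fold change of this list was -0.23. Scpep1, a serine carboxypeptidase, averaged 425 ± 7.89 TPM after co-culture and 497 ± 3.35 TPM in controls (adjusted p = 3.03e-05). Aga, which cleaves the asparagine link of glycoproteins, had a log2 fold change of -0.36 (adjusted p = 0.000119) and Pld3 one of -0.25. The 1 gene that rose was Ctsc, a dipeptidyl peptidase that activates granule proteases, at 14.2 ± 0.824 TPM after co-culture and 11.3 ± 0.963 TPM in controls (log2 fold change 0.31, adjusted p = 0.0152; named after its value was seen).

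Among 27 other lysosomal membrane proteins 10 fell (37.04%), 1 rose (3.70%) and 16 did not pass. Over all genes tested 18.0% fell and 19.8% rose. Laptm4a, a small membrane protein of lysosomes, was at 662 ± 8.93 TPM after co-culture and 838 ± 10.9 TPM in controls (log2 fold change -0.34, adjusted p = 9.25e-07). Tmem106b (-0.36) and Pip4p1 (-0.40) also fell, whereas the sialomucin Cd164 rose to 551 ± 4.20 TPM after co-culture, against 459 ± 10.3 TPM in controls (log2 fold change 0.26, adjusted p = 1.41e-05). Cd164 was the 1 gene of this list that rose.

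The vacuolar ATPase is the pump that acidifies lysosomes. Of 19 tested subunits 6 fell (31.6%) and 1 rose (5.26%), against 18.0% and 19.8% of all genes tested, with a median log2 fold change of -0.08. The catalytic-sector genes Atp6v1b2 (log2 fold change -0.34, adjusted p = 2.29e-05) and Atp6v1a (-0.24, adjusted p = 0.000359) fell, as did Atp6v0e2 (-0.43) and the accessory gene Atp6ap1 (-0.14). The membrane ring gene Atp6v0c, the most abundant subunit, was at 410 ± 5.97 TPM after co-culture and 411 ± 13.5 TPM in controls and did not pass (adjusted p = 0.943).

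Genes that sort enzymes to lysosomes were lower in 7 of 25 tested cases (28%) and higher in 2 (8%), against 18.0% and 19.8% of all genes tested. Igf2r, the large mannose-6-phosphate receptor, averaged 89.4 ± 1.57 TPM after co-culture and 103 ± 2.16 TPM in controls (log2 fold change -0.21, adjusted p = 0.000937). The adaptor and tether genes Ap3s1 (-0.29), Vps41 (-0.25) and the retromer gene Vps26a (-0.15) fell, while Vps35 (-0.05) and Rab7 (-0.08) did not pass. Of 30 autophagy genes 16 fell (53.3%) and 14 did not pass, with a median log2 fold change of -0.14. Map1lc3b (-0.29), Gabarapl1 (-0.34) and Gabarap (-0.16), which encode proteins coupled to autophagosome membranes, and the mitophagy receptor Bnip3l (-0.35) fell, whereas the cargo receptor Sqstm1 (-0.04, adjusted p = 0.196) did not pass.

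**Figure D4:**
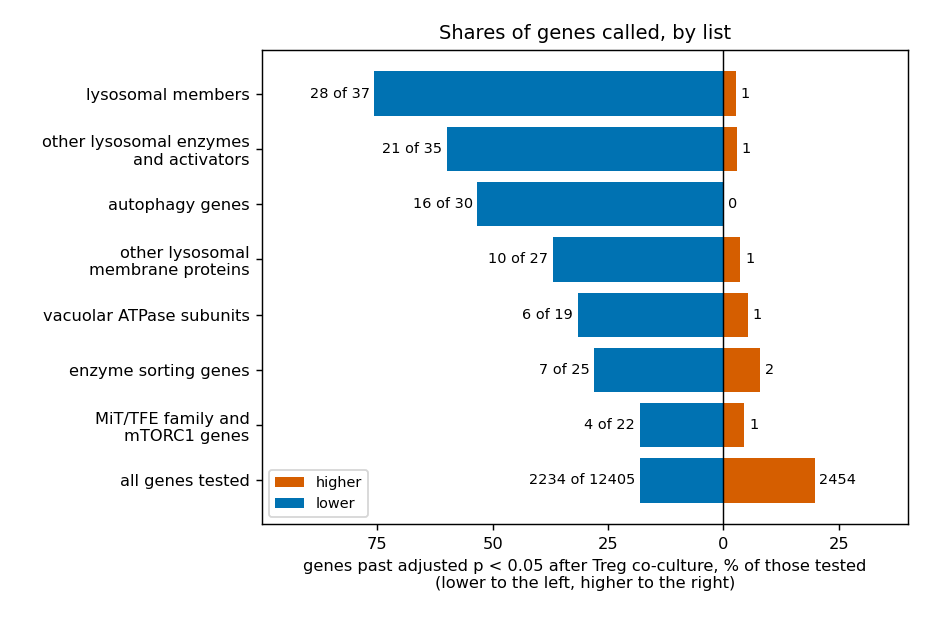
Share of genes past the threshold in the 37 lysosomal genes, in 6 related lists and in all genes tested, lower to the left and higher to the right of 0, with counts beside the bars. The lysosomal genes had 75.7% lower, other lysosomal enzymes 60.0%, autophagy genes 53.3% and all genes tested 18.0%. The list of Mitf, Tfec and mTORC1 genes, drawn as MiT/TFE family, had 18.2%. It leaves out Tfeb and Tfe3, which are among the 37.

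Of the natural inhibitors of cysteine cathepsins, the secreted cystatin Cst3 fell to 284 ± 12.5 TPM after co-culture, against 405 ± 9.14 TPM in controls (log2 fold change -0.51, adjusted p = 1.87e-06). The cytosolic inhibitor Cstb was at 327 ± 18.1 TPM after co-culture and 306 ± 15.8 TPM in controls and did not pass (adjusted p = 0.133), nor did the low Serpina3g (adjusted p = 0.892). Cst6 lay below the filter.

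Markers of several cell types differed between the groups. Beside the counts below, 18.0% of all genes tested fell and 19.8% rose. In bulk RNA, fewer cells of a type and less RNA per cell cannot be told apart. All 10 skeletal muscle genes of a marker list rose, and their summed level was 2630 to 2683 TPM after co-culture, against 950 to 1006 TPM in controls. Of 13 stromal markers 9 fell (69.2%) and 2 rose (15.4%), with a sum of 7889 to 8246 TPM after co-culture, against 9100 to 9604 TPM in controls. Col1a1 alone averaged 5939 TPM after co-culture and 6705 TPM in controls, so it makes up most of this sum. Macrophages are rich in lysosomes, and 1 of 13 tested macrophage markers fell (7.69%, below the share over all genes tested). This was Lyz2, at 44.7 ± 6.26 TPM after co-culture and 65.9 ± 4.18 TPM in controls (adjusted p = 0.000637). The 17 macrophage markers summed to 81.9 to 96.1 TPM after co-culture, against 112 to 117 TPM in controls, a sum that Lyz2 weighs heavily in. The other 12 tested macrophage markers did not pass. Among them were Cd68 (log2 fold change -0.21, adjusted p = 0.307) and Csf1r (0.19, adjusted p = 0.264). Csf1r was at 5.38 ± 0.865 TPM after co-culture and 4.58 ± 0.354 TPM in controls. Of the 13 tested markers 11 had a log2 fold change below 0 (median -0.17), as did 6160 of all 12405 genes tested. In 4 of the 13 all co-culture values lay below all controls, against 24.0% of all genes tested. Ptprc, Aif1, Itgam and Spi1 lay between 0 and 1.29 TPM. Of 6 adipocyte markers 3 were tested and all 3 fell, with a sum of 69.1 to 76.9 TPM after co-culture, against 92.1 to 106 TPM in controls. Fabp4 alone averaged 70.9 TPM after co-culture and 93.6 TPM in controls. The part of these shifts in the lysosomal result was not tested.

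**Figure D5:**
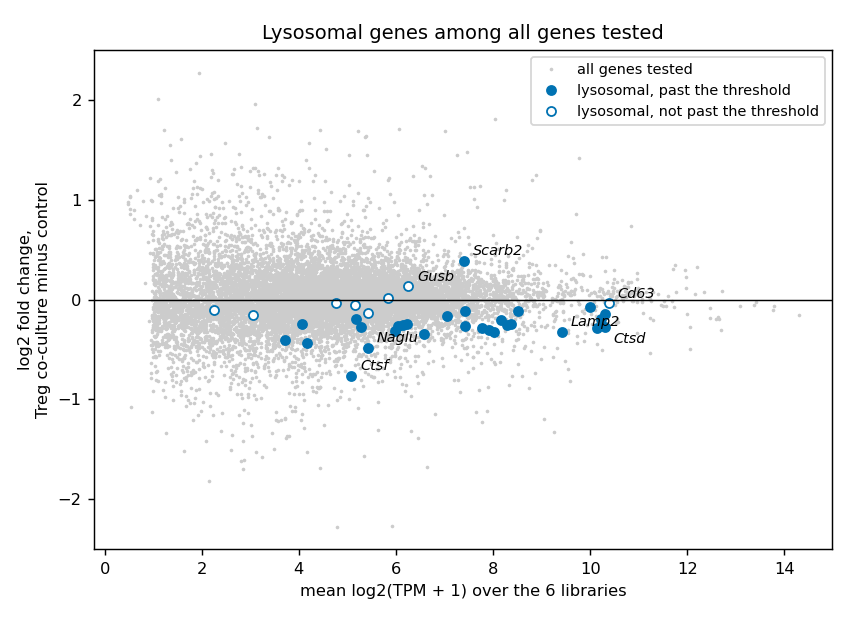
Log2 fold change (Treg co-culture minus control) against the mean log2(TPM + 1) of all 12405 genes tested (grey) and of the 37 lysosomal genes (blue; open circles did not pass the threshold). Most lysosomal genes form a band just below 0 at medium and high levels, with Ctsf below it and Scarb2 above.

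The changes were seen at all levels of abundance. Of 7 genes at 500 TPM or more (mean over all libraries) 6 fell, with a median log2 fold change of -0.20. Of 18 genes between 50 and 500 TPM 15 fell and 1 rose (median -0.25), and of 12 genes under 50 TPM 7 fell (median -0.22). Over all genes tested, at any level, 18.0% fell and 19.8% rose. Shares of all genes within the same bounds were not computed, so these counts have no background of like abundance. These bounds were set after the values were seen. In GENCODE, 12 of the 37 genes share exonic bases with a neighbouring gene. The largest shares were 34.4% of Ctsd (with Gm49369, on the same strand), 26.8% of Ctsl (with the antisense Gm47123) and 12.8% of Ctsb (with Fdft1, on the opposite strand) and of Hexa (with Tmem202, on the opposite strand). Strand use during counting is not stated, so reads of these neighbours cannot be told apart and the values of these genes are less certain.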

How the data were processed

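Values are TPM as deposited by the authors, in 1 table of 6 library columns whose rows are NCBI gene numbers. GRCm38, mm10 and GRCm39 are listed as builds in the submitters' processing notes, without saying which was used for what. No aligner, counter or annotation is given in the sources used here. Per the labels' protocols, polyadenylated RNA was captured on beads and fragmented before cDNA synthesis. Symbols came from an NCBI RefSeq table (GRCm38.p6), which matched 21992 gene numbers (99.1%). Genes averaging 1 TPM or more were tested as log2(TPM + 1), where changes of low genes come out too small, with limma 3.58.1 in R 4.3.3 (lmFit, eBayes with a mean-variance trend), without a block. P-values were Benjamini-Hochberg adjusted over all 12405 genes tested, with a threshold of 0.05. SE and 95% intervals are the moderated ones of limma. In simulated data 200 of 12405 genes were changed, none of them of low abundance. The fit recovered 98% of genes changed by a log2 fold change of 1, with 8 false calls. It recovered only 54% of those changed by 0.3, so changes of the size seen in most members can be missed. In the real data 37.8% of genes passed, so these recovered shares need not hold there, nor for low genes. The members and lists were chosen with earlier results of these data known.

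The labels give libraries of the same number a shared batch. After subtracting group means, libraries of batch 1 correlated at 0.0115, those of batch 2 at -0.0146 and those of batch 3 at 0.00402 across genes. The fit with this batch as a replicate block was an alternative, beside a pseudocount of 0.1, no filter or one of 5 TPM, scaling by median of ratios, quantile normalization, no trend, and each library left out. Named genes are all 37 members, up to 4 genes per pathway list with the lowest adjusted p and the 2 most abundant, and the 3 most abundant of each marker list. Others were named after their values were seen, and some genes that the rule would name are not reported here. Of the promoters this rule would print, that of Ctsl was replaced by the next, Ctsa, because of the distance of its window from a GENCODE start. Protein sequences were not used here. Coordinates are those of the RefSeq promoter table, not of the TPM table. Python 3.11.15 with pandas 2.3.3, scipy 1.17.1 and matplotlib 3.10.9 made tables and figures.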

Additional observations from a re-analysis of the deposited data

How the results depend on the processing

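The count of lysosomal genes that fell ran from 24 (no mean-variance trend) to 30 (quantile normalization) over the 13 alternatives, and from 25 to 28 when 1 library was left out. The count that rose was 1 in each of them except with the replicate block, where it was 2, Gusb being the added gene. The block changed no other call among the 37 genes. Of the 28 genes that fell, 23 kept their call under every alternative, and the 5 that did not were Tpp1, Ctsb, Ctsh, Asah1 and Neu1. None of the 37 changed direction with a call. Cln3 lay below the filter of 5 TPM and gave no value there. Leaving out Treg co-culture 1 moved the log2 fold change of a gene by at most 0.10 (Cln3). Median-of-ratios factors lay between 0.997 and 1.003, and the summed levels became 10636 TPM after co-culture and 12152 TPM in controls. TPM keep no depth, so no counting error can be given, and Cln3 and Tfeb, the least abundant of the 37, had the widest intervals.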

Other observations

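The receptors for mannose-6-phosphate, the tag that directs soluble enzymes to lysosomes, differed in their values. M6pr, the smaller receptor, was at 144 ± 3.17 TPM after Treg co-culture and 136 ± 1.90 TPM in controls (limma adjusted p = 0.076), while Igf2r fell as given above. The ratio of M6pr to Igf2r within a library was 1.59, 1.58 and 1.65 after co-culture, against 1.36, 1.29 and 1.30 in controls. In every co-culture library M6pr lay above and Igf2r below all controls, so this ratio had to separate the groups. The adaptor genes Ap1m1 (log2 fold change 0.16, adjusted p = 0.0187) and Ap1s1 (0.12, adjusted p = 0.0237), which act at the trans-Golgi network, were the 2 sorting genes that rose, and Tcirg1 (0.15, adjusted p = 0.038) was the ATPase subunit gene that rose.

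Ctss, a cathepsin of antigen-presenting cells, was at 3.78 ± 0.363 TPM after co-culture and 7.04 ± 1.06 TPM in controls (log2 fold change -0.75, adjusted p = 0.000928), a log2 fold change close to that of Ctsf. The activator Gm2a, a lipid-binding protein of ganglioside breakdown, was at 33.4 ± 1.74 TPM after co-culture and 44.5 ± 0.999 TPM in controls (log2 fold change -0.40, adjusted p = 0.000176). The ratio of Tfec to Mitf was 0.387, 0.411 and 0.397 after co-culture, against 0.0557, 0.0740 and 0.0888 in controls. In every co-culture library Tfec lay above and Mitf below all controls, so this ratio too had to separate the groups. Tfec was low, with a mean of 1.02 TPM in controls. The genes named here, apart from Igf2r, Mitf, Tfec and Ctsf, and these ratios were singled out after their values were seen.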
